A study of Homo sapiens with 12 samples.

Results

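KLK2, KLK3 and KLK4 are the prostate kallikreins, and their transcripts were followed here in LNCaP-AI cells with and without silencing of METTL1, the enzyme that places internal N7-methylguanosine (m7G) on RNA. The rows of each gene were taken by Ensembl ID, ENSG00000167751 for KLK2, ENSG00000142515 for KLK3 and ENSG00000167749 for KLK4. These are 3 of the 18569 gene IDs, and they hold 215, 474 and 34 positions, 723 of the 842183 positions in all. LNCaP-AI is an androgen-independent line derived from LNCaP prostate cancer cells and labelled as castration-resistant and kept under androgen deprivation. Cells carrying shMETTL1 (METTL1 knockdown, 3 replicates) were set against cells carrying shscramble (control, 3 replicates), both made stable with lentivirus, and each of the 6 samples had an AlkAniline-Seq library and an input library. In AlkAniline-Seq the RNA backbone is cut chemically at m7G and the new ends are sequenced, so that reads collect at single bases. The methods speak of biological replicates in general, but the sample labels do not name separate cultures, so p-values may measure technical spread only. Androgen deprivation and LNCaP-AI are shared by all groups, and parental LNCaP cells or cells given androgen were not analysed here.

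The 3 genes lie together in the kallikrein cluster of chromosome 19. KLK3 encodes prostate-specific antigen, the secreted protease measured in blood as a marker of prostate cancer, and it cleaves the semen gel proteins. KLK2 encodes a trypsin-like protease, the closest relative of KLK3, which can activate the KLK3 proenzyme. KLK4 encodes a further trypsin-like protease of prostate epithelium, also known for its part in the formation of tooth enamel. In prostate cells transcription of KLK2 and KLK3 is driven by the androgen receptor, which binds an inverted repeat of 6 bases with a spacer of 3 in their promoters.

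The upstream sequences of KLK2 and KLK3 are shown because the reads of both genes were lower together in the shMETTL1 input libraries, described further on. They come from RefSeq (GRCh38.p14, chr19:50873189-50873428 for KLK2 and chr19:50854665-50854904 for KLK3, both on the plus strand) and were matched by symbol. The capitals mark the window closest to the receptor motif, AGAACA, 3 bases of any kind and TGTTCT, searched on both strands.
KLK2: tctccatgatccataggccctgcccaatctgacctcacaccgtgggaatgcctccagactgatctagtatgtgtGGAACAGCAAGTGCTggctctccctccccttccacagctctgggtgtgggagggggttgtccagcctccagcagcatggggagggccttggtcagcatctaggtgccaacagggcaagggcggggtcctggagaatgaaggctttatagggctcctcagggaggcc
KLK3: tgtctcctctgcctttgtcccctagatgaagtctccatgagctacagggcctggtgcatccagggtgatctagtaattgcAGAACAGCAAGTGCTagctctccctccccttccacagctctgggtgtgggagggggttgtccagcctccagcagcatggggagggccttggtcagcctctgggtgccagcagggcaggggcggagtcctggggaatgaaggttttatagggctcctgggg
The KLK3 window differed from the motif at 2 of 12 fixed letters and the KLK2 window at 3. Of 35116 promoter windows of 300 bases, 1.41% held a match with at most 2 differences and 10.8% one with at most 3, and the full motif was found in 1. The closest windows of the KLK4 promoters differed at 5 and 6 letters, and 89.2% of all windows held one with at most 5. Over 250 upstream bases, KLK2 and KLK3 were identical at 79.3% of aligned columns, with a shared run of 80 bases, while KLK4 was 50.2% identical to KLK2 and 49.6% to KLK3. These matches are descriptions of letters, and binding was not measured. A link between these sequences and the reads of the genes was not tested.

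The AlkAniline-Seq libraries held 2474464 to 2764417 reads in shMETTL1 and 1421551 to 2624431 in shscramble, and the input libraries 2783709 to 3258499 in shMETTL1 and 3045523 to 3152800 in shscramble. Shscramble AlkAniline-Seq replicate 1 stood apart. Of KLK2 and KLK3 positions with at least 10 reads in another library, it had a read at 103 of the 108 from shscramble replicate 2 and at 88 of the 88 from replicate 3, whereas between the other ordered pairs of libraries the share lay between 52.8% and 80.3%. The main comparisons of AlkAniline-Seq reads are therefore also given without it, while reads at single positions are given for every library. The deposited tables name genes by ID alone and could not be matched to symbols here, so the level of METTL1, the luminal markers that would check the labelled cell type, the other kallikreins and other androgen receptor targets were not analysed here. KLK2 and KLK3 had reads in every one of the 12 libraries. Because their transcripts are close in sequence, reads from stretches they share cannot be assigned with certainty to one of them, and whether the counting used strand is not given in the sources used here.

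KLK2 reads were fewer in shMETTL1 cells in both kinds of library, and the difference was larger in the input. In CPM (read counts scaled to a fixed library total) after TMM scaling, a correction for library composition, KLK2 had 382, 516 and 377 in the shMETTL1 AlkAniline-Seq libraries and 623, 634 and 698 in the shscramble libraries. The groups did not overlap, which held in this direction for 7.38% of 11097 gene IDs. Means were 425 ± 78.9 in shMETTL1 and 652 ± 40.4 in shscramble (SD, n = 3 each). These values came from 994, 1291 and 896 reads in shMETTL1 and from 1152, 1717 and 999 in shscramble. Tested with edgeR's quasi-likelihood test, the log2 fold change was -0.62 (SE 0.29), with an unadjusted p of 0.0496 and a Benjamini-Hochberg adjusted p of 0.716. The gene thus did not pass the adjusted threshold of 0.05, which 0.00901% of gene IDs passed as lower and 0.0% as higher. Without shscramble replicate 1 the log2 fold change was -0.66 (edgeR adjusted p = 0.999), and with coverage in place of reads it was -1.0.

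KLK3 had 2172, 3258 and 2184 AlkAniline-Seq CPM in shMETTL1 and 3326, 2617 and 3289 in shscramble. The groups overlapped, since shMETTL1 replicate 2 lay above shscramble replicate 2. Its mean was 2538 ± 623 in shMETTL1 and 3077 ± 399 in shscramble (SD, n = 3 each), from 5194 to 8153 reads and from 4707 to 7088 reads. The log2 fold change was -0.28 (SE 0.22, edgeR adjusted p = 0.892), -0.23 without shscramble replicate 1 and -0.16 without shMETTL1 replicate 1, and -0.48 with coverage in place of reads. KLK3 was therefore not separated between the groups in the AlkAniline-Seq libraries.

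KLK4 was sparsely read, with 72, 308 and 1 AlkAniline-Seq reads in shMETTL1 and 19, 34 and 82 in shscramble. This corresponds to 27.7, 123 and 0.42 CPM in shMETTL1 and to 10.3, 12.6 and 57.3 in shscramble. The replicates of each group thus spanned more than the distance between the groups. The log2 fold change of 0.92 had an SE of 1.39 (edgeR adjusted p = 0.967), without shscramble replicate 1 it was 0.52 and without shMETTL1 replicate 2 it was -0.90. No direction can be given for KLK4 at this depth.

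**Figure D1:**
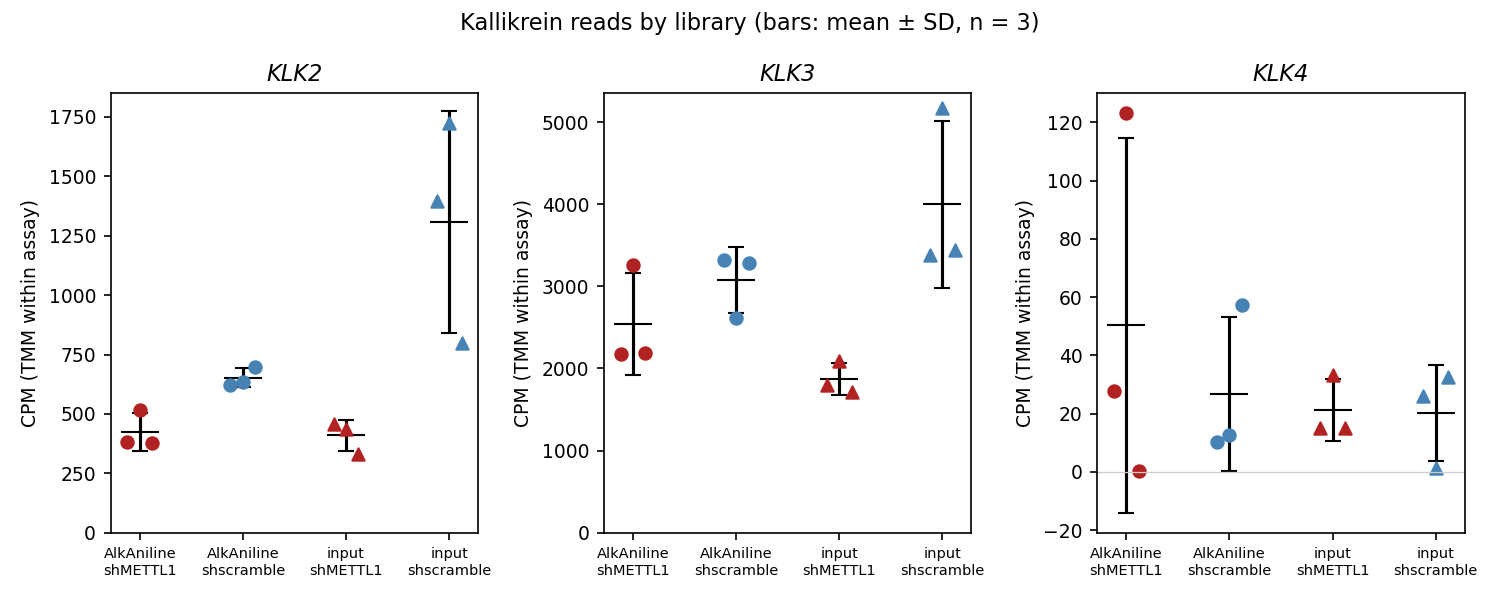
CPM after TMM scaling within each assay (vertical axis, a separate scale for each gene) in the 3 libraries of each group, shMETTL1 in red and shscramble in blue, with circles for AlkAniline-Seq and triangles for input and bars for mean ± SD (n = 3). The 3 shMETTL1 input libraries sit between 334 and 456 for KLK2 and between 1719 and 2089 for KLK3, below all shscramble input libraries, while the KLK4 groups overlap.

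The input libraries answer how many reads these genes had without the enrichment for cleaved ends. KLK2 had 456, 438 and 334 input CPM in shMETTL1 and 1397, 1725 and 800 in shscramble, from 1771, 1508 and 1017 reads in shMETTL1 and 4445, 3541 and 2591 in shscramble. The highest shMETTL1 library was thus below the lowest shscramble library, and the means were 409 ± 66.2 in shMETTL1 and 1308 ± 469 in shscramble (SD, n = 3 each). Groups without overlap in this direction were found for 5.84% of 11740 gene IDs. The log2 fold change was -1.68 (SE 0.34), and its unadjusted p of 0.000121 was the smallest of all 11740 gene IDs. The adjusted p was nevertheless 0.747 with edgeR and 0.165 with DESeq2. By edgeR 0 gene IDs passed in this comparison, that is 0.0% as lower and 0.0% as higher. Without adjustment, 542 (4.62%) were below 0.05 as lower and 193 (1.64%) as higher, and DESeq2 called 20 (0.17%) lower and 15 (0.128%) higher, neither gene among them. A large part of the KLK2 input reads lay at 1 position. It held 44.0%, 38.7% and 24.1% of them in shMETTL1 and 51.6%, 41.8% and 33.2% in shscramble. The input comparison was not run without that position. In bulk RNA, fewer cells that express a gene and less RNA per cell cannot be told apart.

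KLK3 followed the same course in the input. It had 1795, 2089 and 1719 input CPM in shMETTL1 and 3383, 5172 and 3443 in shscramble, and every shMETTL1 library lay below every shscramble library. Means were 1868 ± 195 in shMETTL1 and 3999 ± 1016 in shscramble (SD, n = 3 each). Raw reads numbered 6968, 7186 and 5241 in shMETTL1 and 10764, 10616 and 11144 in shscramble. The log2 fold change was -1.10 (SE 0.26, unadjusted p = 0.000532, edgeR adjusted p = 0.747), and by unadjusted p it stood at rank 7 of 11740. With coverage in place of reads it was -0.56.

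Whether KLK2 and KLK3 are called lower in the input depended on the fit. With no filter on low counts, both were called, with log2 fold changes of -1.69 for KLK2 (edgeR adjusted p = 0.00069) and -1.11 for KLK3 (edgeR adjusted p = 0.00089), in a fit that called 94 (0.524%) of 17939 gene IDs lower. The replicate number as a block gave -1.62 for KLK2 (edgeR adjusted p = 0.0490) and -1.07 for KLK3 (edgeR adjusted p = 0.0603), and called 2 of 11740 gene IDs (0.017%) lower, although the numbers were not found to pair the samples. When 1 library was left out at a time, KLK2 stayed between -1.95 and -1.43 and KLK3 between -1.24 and -0.87, with no adjusted p below 0.139. Both falls were smallest without shscramble input replicate 2. That library had reads at 72098 positions, against 153839 to 311979 in the other input libraries. Scaling by library size alone moved the median of all gene IDs from -0.04 to 0.22, and relative to that median KLK2 was at -1.53 and KLK3 at -0.97, compared with -1.64 and -1.06 under TMM.

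KLK4 was too sparsely read in the input to show whether it shared this pattern. Its input reads were 59, 115 and 46 in shMETTL1 and 83, 3 and 106 in shscramble, or 15.2, 33.4 and 15.1 CPM in shMETTL1 and 26.1, 1.46 and 32.7 in shscramble. The groups overlapped and the log2 fold change was 0.07 (SE 1.18, edgeR adjusted p = 0.996). Shscramble replicate 2, with 3 reads, alone lay below the shMETTL1 libraries. Without that library the log2 fold change was -0.47, and without shscramble replicate 3 it was 0.63. With coverage in place of reads it was -0.43, so no direction can be given.

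**Figure D2:**
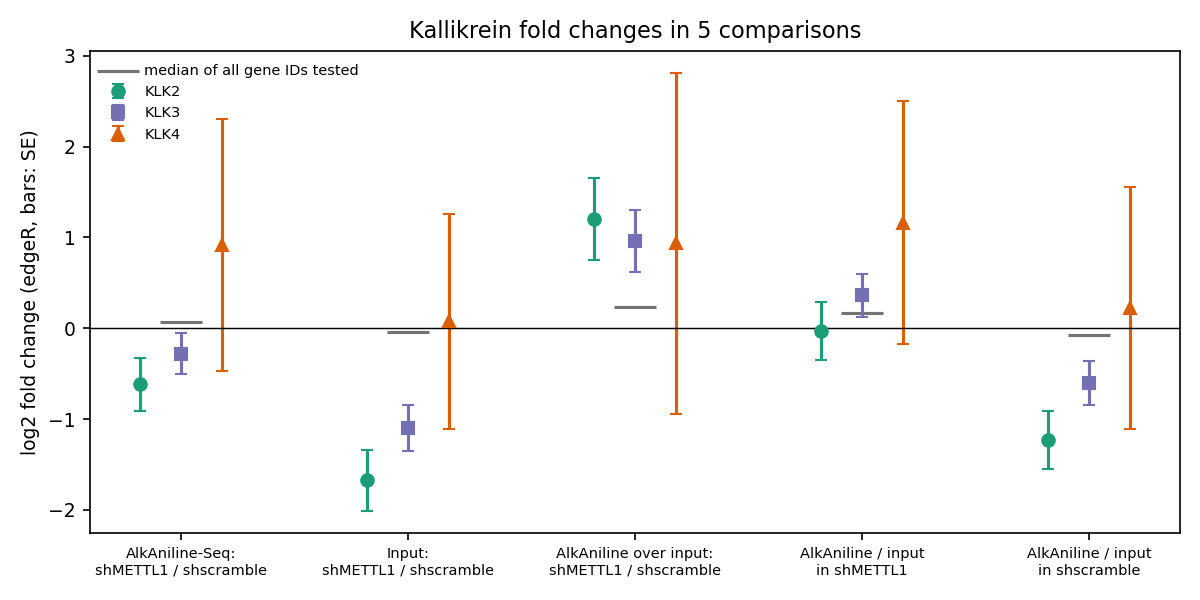
Log2 fold changes (vertical axis) of KLK2, KLK3 and KLK4 in 5 comparisons (horizontal axis). Bars are the standard error derived from edgeR's test statistic, and grey lines the median over all gene IDs tested. KLK2 at -1.68 and KLK3 at -1.10 lie farthest below the median in the input comparison, and every KLK4 bar is wide, with standard errors of 1.18 and above.

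An interaction term in a fit over the 12 libraries tested whether AlkAniline-Seq reads changed beyond the input. KLK2 gave 1.21 (SE 0.45, unadjusted p = 0.0141, edgeR adjusted p = 0.524) and KLK3 gave 0.96 (SE 0.34, unadjusted p = 0.00938, edgeR adjusted p = 0.499), that is, higher over input in shMETTL1 than in shscramble but short of the adjusted threshold. An unadjusted p under 0.05 in this direction was reached by 5.3% of 12877 gene IDs, whose median was 0.24, and 0.00777% were called lower and 0.0% higher. KLK4 gave 0.94 (SE 1.88, edgeR adjusted p = 0.924). Without shscramble AlkAniline-Seq replicate 1 the values were 1.07 for KLK2, 0.92 for KLK3 and 0.50 for KLK4. With library size alone they were 0.58 and 0.36, against a median of -0.28 over all gene IDs.

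Within each genotype the AlkAniline-Seq reads were also set against the input. In shMETTL1 cells, KLK2 was at -0.02 (SE 0.32), KLK3 at 0.36 (SE 0.24) and KLK4 at 1.16 (SE 1.34), with edgeR adjusted p-values of 0.995, 0.753 and 0.884, and none was called, where 0.124% of gene IDs were called lower and 0.0854% higher. In shscramble cells, KLK2 was at -1.23 (SE 0.32, unadjusted p = 0.000953, edgeR adjusted p = 0.0883), KLK3 at -0.60 (SE 0.24, edgeR adjusted p = 0.285) and KLK4 at 0.22 (SE 1.33, edgeR adjusted p = 0.956). The background in shscramble was 0.544% called lower and 0.0932% higher. For KLK2 in shscramble the call depended on the setting. It passed with no filter (-1.18, edgeR adjusted p = 0.0348), where 1.18% of gene IDs were called lower, and without shscramble input replicate 3 (-1.51, edgeR adjusted p = 0.0204), where 1.03% were. It did not pass with DESeq2 (adjusted p = 0.0786) or with library size alone (-0.75, edgeR adjusted p = 0.275), which gave -0.14 for KLK3. Leaving out 1 library at a time put the edgeR adjusted p of KLK2 between 0.0204 and 0.365, the highest without shscramble AlkAniline-Seq replicate 1 (-1.11), and without shscramble input replicate 2 the value was -0.95 (edgeR adjusted p = 0.231). KLK3 was at -0.57 without shscramble AlkAniline-Seq replicate 1 and at -0.34 without shscramble input replicate 2. Of the 82 gene IDs called in shscramble, 70 were lower and 12 higher, and library size alone split its calls into 34 lower and 30 higher.

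**Figure D3:**
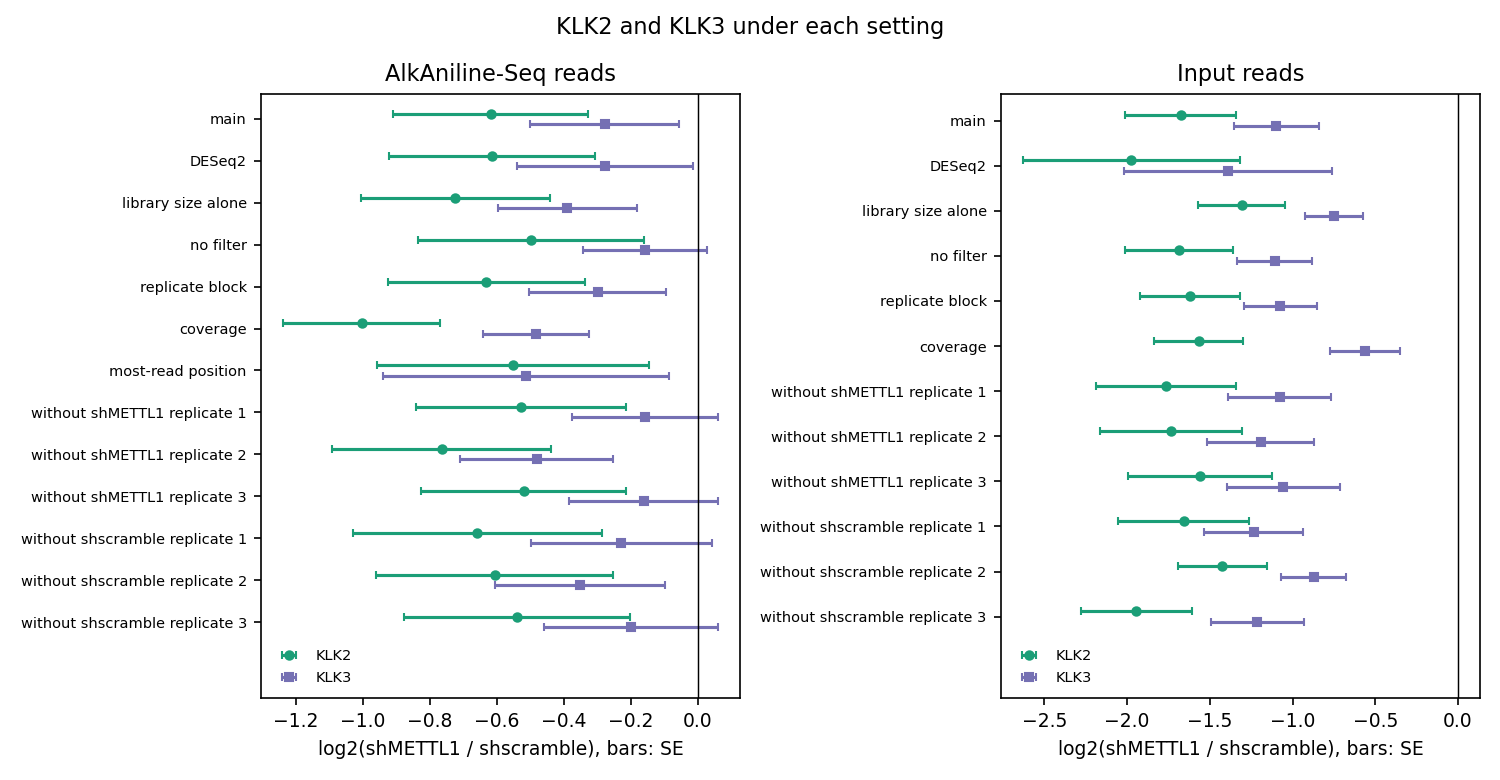
Log2 fold change of shMETTL1 over shscramble (horizontal axis, bars for the standard error) for KLK2 and KLK3 under the main fit and each alternative, with AlkAniline-Seq reads at left and input reads at right. All points lie below 0, between -1.0 and -0.16 for AlkAniline-Seq and between -1.97 and -0.56 for input.

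The balance between KLK3 and KLK2 inside a library does not depend on how libraries are scaled, and it is a ratio of reads, not of levels per length. KLK3 had 5.69, 6.31 and 5.79 reads per KLK2 read in the shMETTL1 AlkAniline-Seq libraries and 5.33, 4.13 and 4.71 in the shscramble libraries. These groups did not overlap, and the mean log2 ratio was higher in shMETTL1 by 0.33 (exact two-sided permutation test, p = 0.1, the smallest that 3 against 3 can give). Without shscramble replicate 1 the difference was 0.43, and with coverage in place of reads it was 0.53 and the groups overlapped (exact p = 0.4). In the input there were 3.93, 4.76 and 5.15 KLK3 reads per KLK2 read in shMETTL1 and 2.42, 3.0 and 4.30 in shscramble. Here shscramble replicate 3 lay inside the shMETTL1 range, and the difference of 0.54 had an exact p of 0.2, while with coverage it was 0.95 and the groups did not overlap (exact p = 0.1). The log2 ratio of KLK4 over KLK2 differed by 0.02 in the AlkAniline-Seq libraries (exact p = 1.0) and by 2.42 in the input (exact p = 0.2). The input difference rested largely on shscramble replicate 2, which held 3 KLK4 reads, and was 0.82 without it (exact p = 0.4) and 1.16 with coverage, and with coverage the AlkAniline-Seq difference was 2.13. Over the 22 exact tests made on the members, these included, 2 had groups without overlap and the smallest Benjamini-Hochberg adjusted p was 0.66.

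The reads were then set against the coverage of the same gene and library. For KLK3 they made up 2.84%, 2.79% and 2.44% of coverage in shMETTL1 AlkAniline-Seq libraries and 2.72%, 2.26% and 2.49% in shscramble. KLK3 thus differed by 0.20 percentage points (exact p = 0.3), by 0.315 without shscramble replicate 1, and between 0.0874 without shscramble replicate 2 and 0.325 without shMETTL1 replicate 3. KLK2 had 4.37%, 8.98% and 6.88% in shMETTL1 and 5.41%, 5.51% and 4.74% in shscramble, which overlapped. The difference of 1.52 percentage points (exact p = 0.4) was 1.62 without shscramble replicate 1, and between 0.407 without shMETTL1 replicate 2 and 2.71 without shMETTL1 replicate 1. KLK4 ranged from 1.30% to 32.6% in shMETTL1 and from 20.2% to 43.6% in shscramble (exact p = 0.3), a difference of -16.0 percentage points, or -21.2 without shscramble replicate 1.

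In the input, KLK3 reads were 2.08%, 1.61% and 1.62% of coverage in shMETTL1 and 2.16%, 2.45% and 2.05% in shscramble, lower in shMETTL1 by 0.45 percentage points on average but overlapping (exact p = 0.2). KLK2 averaged 6.13% ± 0.97 in shMETTL1 and 5.78% ± 0.70 in shscramble (SD, n = 3 each, exact p = 0.8). Pooled over libraries, KLK3 stood low among well-read genes. Its AlkAniline-Seq reads were 2.58% of coverage, against a median of 9.03% over 3163 gene IDs with at least 1000 reads, of which 54 were lower, and in the input it was at 2.01%, against 10.9% over 3874. KLK2 was at 5.70%, with 676 gene IDs lower, and at 5.93% in the input. The low value of KLK3 was therefore present in both kinds of library. Gene IDs were not matched for depth in this comparison. KLK3 had 36942 AlkAniline-Seq reads and KLK2 7049, while KLK4, with 516, was at 23.6%. Whether the low value goes with depth was not tested.

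**Figure D4:**
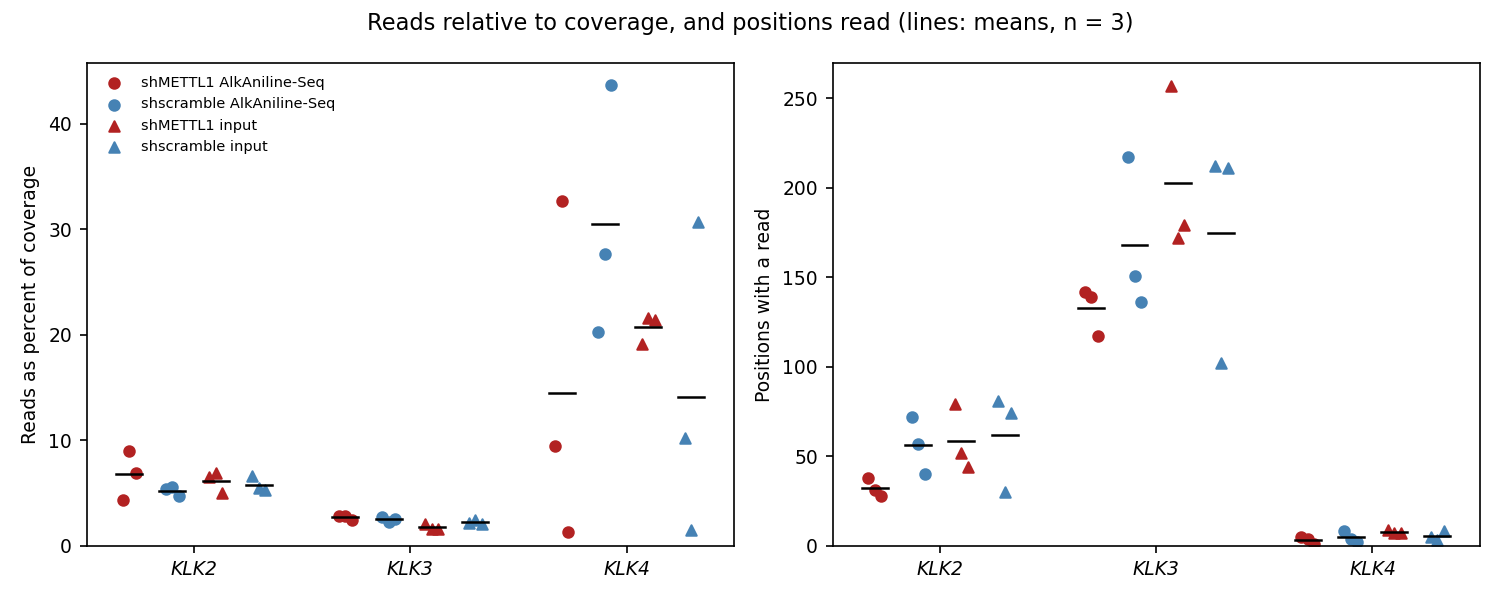
Reads as a percent of coverage (left) and number of positions with a read (right) for each gene and library, shMETTL1 in red and shscramble in blue, circles for AlkAniline-Seq and triangles for input, with lines at the means (n = 3). KLK3 lies between 1.61% and 2.84% of coverage in all 12 libraries, and the KLK2 AlkAniline-Seq groups do not overlap in positions read.

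KLK2 reads fell on fewer positions in shMETTL1. There were 38, 31 and 28 KLK2 positions with an AlkAniline-Seq read in shMETTL1 and 72, 57 and 40 in shscramble. The groups did not overlap (exact p = 0.1, the smallest possible), although shMETTL1 replicate 1 and shscramble replicate 3 differed by only 2 positions, and the mean difference of -24.0 became -16.2 without shscramble replicate 1. Groups without overlap in this direction were found for 5.98% of 11097 gene IDs, and whole libraries had reads at 114828, 88115 and 97954 positions in shMETTL1 and at 166443, 116013 and 86641 in shscramble. The part of these library-wide numbers in the KLK2 difference was not tested. KLK3 had 142, 139 and 117 positions in shMETTL1 and 217, 151 and 136 in shscramble, which overlapped (exact p = 0.3), and the difference of -35.3 was -10.8 without shscramble replicate 1. KLK4 had 5, 4 and 1 in shMETTL1 and 8, 4 and 2 in shscramble. In the input, KLK2 had 79, 52 and 44 positions in shMETTL1 and 81, 30 and 74 in shscramble, with no such separation (exact p = 0.9).

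The 3 genes spread their reads differently. KLK3 reads were the most dispersed, since its 5 most-read positions held 19.5% of its 36942 AlkAniline-Seq reads and 28 positions were needed for 50%. KLK2 needed 8 positions for 50% of its 7049 reads, and its leading 5 held 44.1%. The same 5 positions held 59.1% of its 14873 input reads. For KLK4 the leading 5 held 90.5% of 516 reads. Among positions with at least 1 AlkAniline-Seq read, 46.8% of the 126 in KLK2, 28.1% of the 320 in KLK3 and 66.7% of the 15 in KLK4 were read in exactly 1 library, against 62.9% over all genes. All 6 libraries shared 6 KLK2, 40 KLK3 and 0 KLK4 positions, or 4.76%, 12.5% and 0.0% of those read, against 1.9% over all genes, and the input also had reads at 71.4%, 83.4% and 60.0% of them, against 50.9%. These genes differ in depth, which was not matched between genes here.

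The deposited tables give no coordinates for the positions, so they are named by their rank in AlkAniline-Seq reads. At the leading KLK2 position there were 291, 309 and 39 reads in shMETTL1 and 299, 265 and 205 in shscramble. The groups overlapped and shMETTL1 replicate 3 was low (log2 fold change -0.64, SE 0.82, edgeR adjusted p = 1.0). In the input the same position had 779, 584 and 245 reads in shMETTL1 and 2295, 1480 and 860 in shscramble, without overlap. The share of all input positions that separated in this way was not counted. For the leading KLK2 position, the deposited fold of the fraction over the input's was 0.33, 0.94 and 0.32 in shMETTL1 and 0.43, 0.47 and 0.53 in shscramble, below 1 in all 6 samples. Thus the position with the most KLK2 reads after cleavage had a larger share of its coverage in the input.

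The second KLK2 position varied widely within groups, with 164, 149 and 1 reads in shMETTL1 and 81, 206 and 8 in shscramble. The third was steadier, with 53, 112 and 105 reads in shMETTL1 and 71, 93 and 104 in shscramble. The fourth had 75, 109 and 9 in shMETTL1 and 15, 37 and 64 in shscramble. None of these separated the groups. The fifth was read almost solely in 2 shscramble libraries, with 0, 1 and 0 reads in shMETTL1 and 25, 218 and 0 in shscramble, and was too sparse to be tested.

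For KLK3 the leading position had 159, 504 and 680 reads in shMETTL1 and 420, 976 and 276 in shscramble. The second had 260, 358 and 2 in shMETTL1 and 179, 392 and 47 in shscramble, and the third had 25, 129 and 308 in shMETTL1 and 288, 119 and 212 in shscramble. In all 3 the groups overlapped. The fourth, with 362, 120 and 7 reads in shMETTL1 and 142, 162 and 183 in shscramble, overlapped too. Only the fifth of these had every shMETTL1 library below every shscramble library, with 70, 131 and 65 reads in shMETTL1 and 203, 221 and 222 in shscramble (log2 fold change -1.65, SE 0.84, unadjusted p = 0.0703, edgeR adjusted p = 0.725). The share of all positions that separated in this way was not counted, so how ordinary this is cannot be said.

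**Figure D5:**
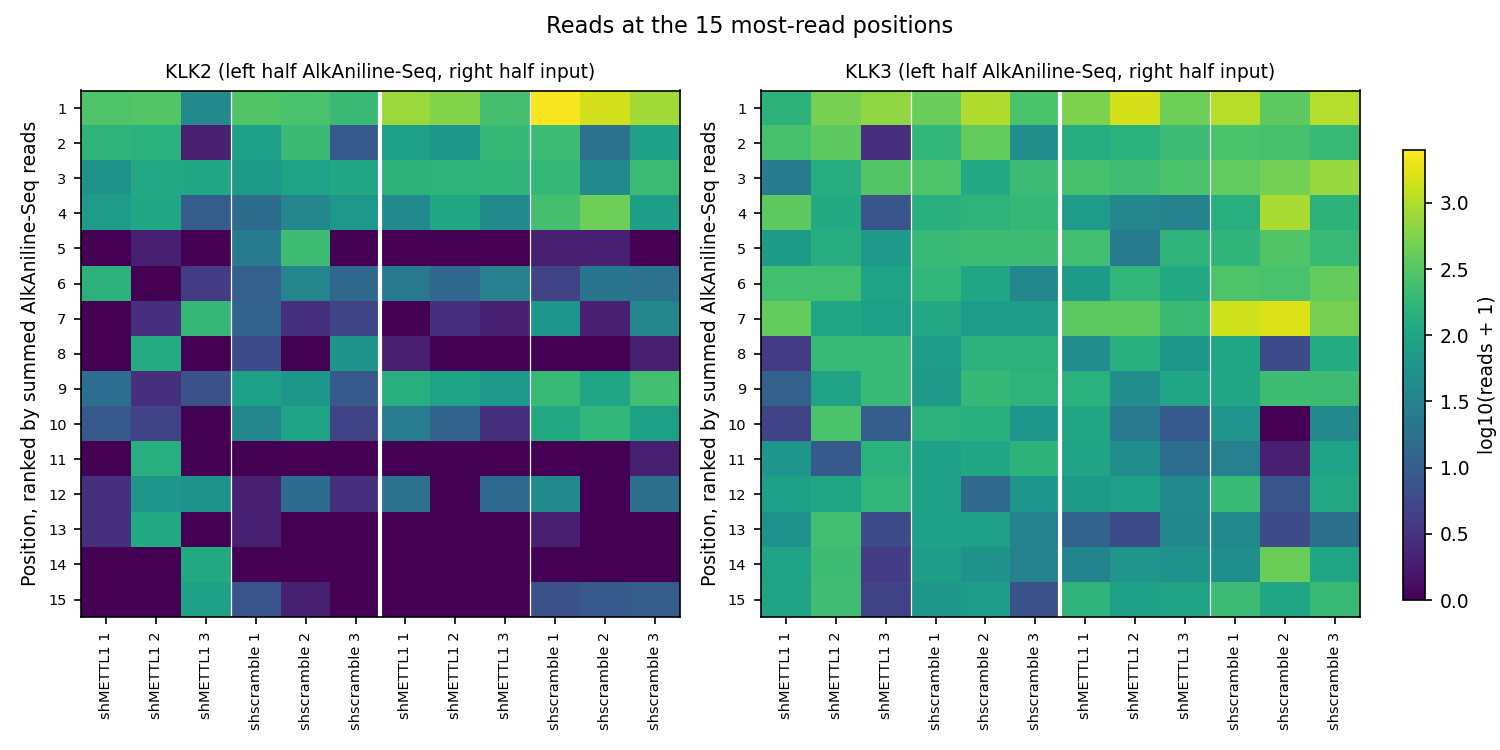
Reads at the 15 most-read positions of KLK2 and KLK3 (rows, ranked by summed AlkAniline-Seq reads) in the 12 libraries (columns), coloured by log10 of reads plus 1. The leading KLK2 position reaches 2295 reads in a shscramble input library and 309 at most in AlkAniline-Seq, and many rows change colour between replicates of the same group.

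Across all positions with enough reads for the test, 77 belonged to these genes, 11 of KLK2, 66 of KLK3 and 0 of KLK4. By edgeR 0 of the 77 were called, where 0.0% of 13973 positions were called lower and 0.0% higher. At an unadjusted p under 0.05, 4 of the 77 were lower and 0 higher, against 6.63% lower and 1.55% higher over all positions. Log2 fold changes were below 0 at 7 of the 11 KLK2 positions and at 41 of the 66 KLK3 positions, with medians of -0.64 and -0.42, against 53.8% of all positions and a median of -0.12. Without shscramble replicate 1 the medians were -0.21 for KLK2 (9 of 14 below 0) and 0.07 for KLK3 (38 of 80), against 0.21 over all positions with 45.4% below 0. With DESeq2 they were -0.35 (7 of 11) and -0.14 (36 of 66), against 0.08 and 47.4%.

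The same 4 positions were called by DESeq2, which called 3.84% of positions lower and 1.27% higher. One is in KLK2 (rank 23), with 0, 0 and 0 reads in shMETTL1 and 11, 11 and 57 in shscramble (edgeR adjusted p = 0.312, DESeq2 adjusted p = 0.0429). The others are in KLK3. Rank 40 had 0, 1 and 1 reads in shMETTL1 and 27, 114 and 110 in shscramble, and rank 51 had 0, 0 and 1 in shMETTL1 and 41, 98 and 67 in shscramble. Rank 35 had 5, 2 and 0 reads in shMETTL1 and 50, 230 and 15 in shscramble. For ranks 35, 40 and 51 the DESeq2 adjusted p-values were 0.0255, 0.00279 and 0.00354, and those of edgeR 0.399, 0.312 and 0.312. All 4 had few or no reads in every shMETTL1 AlkAniline-Seq library. Shscramble replicate 1 stood apart in sharing read positions with the other shscramble libraries, so its reads here may not be separate evidence. Without it edgeR called 0 positions of these genes as lower and 0 as higher, and DESeq2 was not run at positions. At rank 23 the input held 2, 0 and 0 reads in shMETTL1 and 0, 1 and 10 in shscramble. At rank 40 it held 1, 8 and 1 in shMETTL1 and 12, 1 and 49 in shscramble. At rank 35 the input held 70, 13 and 0 in shMETTL1 and 7, 0 and 19 in shscramble. At rank 51 it held 7, 33 and 19 in shMETTL1 and 18, 1 and 34 in shscramble. At rank 40 the shMETTL1 AlkAniline-Seq coverage was 298, 295 and 3, so replicate 3 could hardly be read there. These 4 positions were chosen by their values and are a description.

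The study's thresholds, a fold of 1.5 and a p under 0.05, were applied with the methods' t-test to the deposited fold over input, a value chosen here because the methods do not state which one was tested. They were passed as lower by 2 of 126 KLK2 positions and 2 of 320 KLK3 positions and as higher by 1 KLK3 position, against 1.05% lower and 0.204% higher of 404685 positions, and by 0 of 15 in KLK4. None of the 5 passed after Benjamini-Hochberg adjustment. The KLK2 positions were rank 18, with 0, 0 and 1 reads in shMETTL1 and 7, 5 and 73 in shscramble, and rank 38, with 0, 0 and 0 in shMETTL1 and 4, 1 and 41 in shscramble. At both, shscramble replicate 3 held most of the reads. In KLK3, rank 188 had 0, 0 and 0 reads in shMETTL1 and 9, 1 and 12 in shscramble. Rank 191 had 0, 0 and 0 in shMETTL1 and 2, 1 and 18 in shscramble. At each of these lower positions the input of shscramble replicate 2 had no read, so its deposited fold was the fraction plus 1. At rank 188, 1 read in a coverage of 1497 thus gave a fold of 1.0007. At rank 38, 1 read in a coverage of 123 gave 1.008. Libraries without a read had a fold of 0, so these passes rest largely on whether any read was counted. Rank 193, the higher one, had 18, 1 and 1 reads in shMETTL1 and 0, 0 and 0 in shscramble. Its AlkAniline-Seq coverage was 18, 2 and 1 in shMETTL1 and 0, 0 and 0 in shscramble, where the deposited fold of 0 holds no data. Shares of members past the thresholds lay near the background.

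The leading 3 KLK4 positions were each read in 1 or 2 libraries. The first had 0, 216 and 0 reads in shMETTL1 and 2, 0 and 0 in shscramble, and the second had 0, 89 and 0 in shMETTL1 and 0, 0 and 0 in shscramble. The third had 64, 0 and 0 in shMETTL1 and 0, 0 and 0 in shscramble. The fourth and the fifth were read mainly in shscramble replicate 3, with 45 and 37 reads. Of its 15 positions with a read, 10 were read in 1 library only.

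Over the 12 libraries, with log2 CPM centred within each assay, KLK3 ranked 2 among 12876 gene IDs by likeness to KLK2 (Pearson's r = 0.93) and KLK2 ranked 6 by likeness to KLK3. At rank 1 stood ENSG00000145592 for KLK2 (r = 0.93) and ENSG00000134419 for KLK3 (r = 0.95), and neither could be named here. KLK4 had r = -0.13 with KLK2 and -0.06 with KLK3. The points share libraries and their depth and fall into the 2 genotypes, and the values are a description without a test.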

How the data were processed

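Internal m7G of mRNA was mapped by AlkAniline-Seq in 3 shMETTL1 and 3 shscramble samples of LNCaP-AI cells, each with an input library. Per the submitters' processing notes, the build was hg19 and the tools Bowtie2 2.2.4, bedtools 2.24 and cutadapt 1.9.1. For tool settings, read filters and annotation, nothing is given in the sources used here. The authors deposited, for each position, the counts of reads at the position and the coverage. They also deposited a fraction (count divided by coverage) and a fold, the ratio of this fraction to that of the input, with the fraction plus 1 where the input's is 0. These relations were checked on the files. The fold is 0 where no read was counted, also where the coverage was 0. Low input coverage can inflate the fold.

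Counts summed per gene ID were fitted by edgeR 4.0.16 under R 4.3.3 (TMM, quasi-likelihood, minimum count 10, minimum total 15, Benjamini-Hochberg over all features tested, threshold 0.05), and the same was done per position. AlkAniline-Seq over input was tested in 1 fit over the 12 libraries. Shares and ratios (0.5 added to both counts) were compared by exact two-sided permutation tests. The edgeR genotype comparisons, per gene ID and per position, and the interaction term were tested on simulated data, and the other steps were not. Alternatives were DESeq2 1.42.0, library size alone, no filter, a replicate block, coverage, the most-read position, the methods' t-test, thinning of reads and leaving out each library. Numpy 2.4.6, scipy 1.17.1, pandas 2.3.3 and matplotlib 3.10.9 handled tables and figures.

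Named positions were the 5 most read of each gene and those past the methods' thresholds. The 4 called by DESeq2 were added after their values were seen. Lists of other kallikreins, androgen receptor targets and cell type markers were not run, since 0 of the 18569 gene IDs matched the reference table of 59792 genes. The members and lists were chosen with earlier results of these data known. Intervals between libraries cover replicate spread only, and 3 replicates against 3 allow no exact p under 0.1.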

Additional observations from a re-analysis of the deposited data

How the results depend on the processing

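KLK2 and KLK3 kept their sign in both genotype comparisons under every alternative run. The calls they gained are stated above: with no filter KLK2 input -1.69, KLK3 input -1.11 and KLK2 over input in shscramble -1.18, and with the replicate block KLK2 input -1.62. The mean fraction over positions turned the difference in percent of coverage to -1.18 (KLK2, AlkAniline-Seq), -1.68 (KLK2, input) and -0.25 (KLK3, AlkAniline-Seq), and thinning turned KLK2 input positions to 7.94. KLK4 turned with coverage in the input (-0.43) and with the replicate block over input (-0.68) and within shMETTL1 (-0.12). Same-numbered replicates did not deviate together (r between -0.02 and 0.05), so the block is a setting only, and it changed no other call of the members. The cause of these changes was not tested.

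Gene IDs called in AlkAniline-Seq reads, 1 in the main fit, numbered 178 with DESeq2, 2 with library size alone, 19 with no filter, 3 with the block, and 0 with coverage or the most-read position. Input calls, 0 in the main fit, numbered 35 with DESeq2, 95 with no filter and 2 with the block. Over input, 1 became 95 with DESeq2 and 31 with no filter. Within shMETTL1, 27 became 112 with DESeq2, 57 with library size alone, 104 with no filter and 69 with the block. Within shscramble, 82 became 571 with DESeq2 and 266 with no filter. Positions called, 0 in the main fit, numbered 713 with DESeq2, 5 with no filter and 5 with the block. The methods' t-test gave 5060, and 1577 after adjustment, the latter counted without the fold threshold. In that test, positions whose folds differed between groups but did not vary within either were given the lowest possible p. Called positions of the 3 genes, also 0 in the main fit, numbered 4 with DESeq2 and 5 by the methods' t-test.

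Leaving out 1 library at a time gave 0 to 3 calls in AlkAniline-Seq reads, 0 to 2 over input, 2 to 91 within shMETTL1 (91 without shscramble input replicate 2), 24 to 157 within shscramble (157 without shscramble input replicate 3) and 3 to 27 positions (27 without shMETTL1 replicate 1). Log2 fold changes ranged from -1.51 to -0.95 for KLK2 within shscramble and from -0.19 to 0.058 within shMETTL1. KLK4 ranged from -0.90 to 2.15 in AlkAniline-Seq reads, -0.47 to 0.63 in input, -0.88 to 2.17 over input, -0.67 to 1.74 within shMETTL1 and -1.01 to 0.74 within shscramble, and its log2 ratio to KLK2 from -1.46 to 2.12 in AlkAniline-Seq. Differences in percent of coverage ranged from -0.0193 to 0.90 (KLK2, input). Differences in positions read ranged from -19.2 to 6.33 (KLK2, input), -8.83 to 46.2 (KLK3, input) and -2.67 to 0.33 (KLK4, AlkAniline-Seq). Differences in the share of the most-read position ranged from -2.29 to 2.37 (KLK3, AlkAniline-Seq), -4.51 to 2.10 (KLK3, input) and -0.29 to 22.6 (KLK4, input). Thinning was not run for KLK4, whose shallowest library held 1 read.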
